A study of Mus musculus with 62 samples.

Results

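The distal ends of the 19 mouse autosomes, defined as the last 2 Mb of each chromosome in the mm10 assembly, were examined in CUT&Tag data of haematopoietic stem and progenitor cells (HSPCs) lacking the H3.3 chaperone Daxx. CUT&Tag tethers a transposase through an antibody, so that DNA next to a protein or a histone mark is cut, tagged and sequenced. Among 1709082 autosomal sites listed in 14 comparison tables, 29265 had their last base within 2 Mb of the chromosome end. The choice used position only. The cells came from the bone marrow of C57BL/6 mice and were enriched with magnetic beads for lack of lineage markers and for c-Kit. WT mice were labelled Daxx +/+ Cre +/-, Daxx-KO mice Daxx F/F Cre +/-, and DKO mice Daxx F/F and Pu.1 F/F with Cre +/-, so all groups were labelled as carrying Cre. Cre was driven by the interferon-inducible Mx1 promoter and switched on with pI:pC, an inducer of interferon, given to mice of both sexes aged 5 to 11 weeks. This promoter is active in many cell types besides HSPCs, and all groups received the inducer. At 3 weeks post induction (w.p.i.), H3.3, Pu.1, H3K27ac and H3K9me3 were compared between 2 Daxx-KO and 2 WT libraries each. At 8 w.p.i., H3K9me3 was compared between WT, Daxx-KO and DKO, and H3K27me3 between DKO and each of the other groups, each group having 3 libraries. At 24 w.p.i., the 3 w.p.i. targets and H3K27me3 were compared between 2 Daxx-KO and 2 WT libraries. Of the 62 libraries, 54 were in these tables, and 8 DKO libraries at 24 w.p.i. were in none.

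The end of a chromosome carries arrays of the telomeric repeat TTAGGG, and the stretch before it, the subtelomere, mixes repeats, gene families and ordinary genes. Daxx, with its partner Atrx, deposits the histone variant H3.3 at telomeric repeats, at the repeats next to centromeres and at silenced retroviral elements, where H3K9me3 is the typical repressive mark. H3K27me3 is the repressive mark of Polycomb complexes, H3K27ac marks active promoters and enhancers, and Pu.1 is a transcription factor of myeloid and lymphoid cells that binds GGAA-type sequences.

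The assembled ends differ in what they hold, and the largest counts came from the telomeric tracts that close most of them. In mm10 each autosome closes with an unsequenced gap of 100000 bp, or 150000 bp on chromosomes 4 and 6. In 17 of the 19 ends, the 5 kb before this gap held at least 10 matches to a tandem pair of TTAGGG, chromosome 9 held 5 and chromosome 4 held 0. The last 120 bases of chromosome 4 on the plus strand, at chr4:156357997-156358116 of mm10, are shown as the end that lacks the repeat, with any TTAGGG in capitals.
chr4 last bases: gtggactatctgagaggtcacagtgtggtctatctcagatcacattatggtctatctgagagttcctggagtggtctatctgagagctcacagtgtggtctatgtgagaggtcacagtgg
These bases hold 0 copies of TTAGGG. Because the telomeric tracts of the other ends are nearly identical, a read of telomeric repeat cannot be placed on 1 chromosome, and sites in different tracts do not count as independent. Of all 750-bp windows of the autosomes, 0.0373% held the tandem pair on either strand, against 0.171% of the windows in the distal ends.

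The values are normalised counts, the reads of a library in a site divided by a constant for that library. Only sites that passed the authors' window test for a difference are listed, so a region without a site has no value, and markers of HSPCs or of other cells could not be used to check the identity of the cells. A site was called gained where the mean of the first-named group was the higher and lost where it was the lower. The 95% intervals of shares are Wilson intervals and cover counting error only, since PCR reads are not independent molecules and neighbouring sites are not replicates. Fewer cells of a type and less signal per cell cannot be told apart in such bulk libraries. Depth varied, with a mean of 1.21 to 33.78 reads per 600-bp window at 3 w.p.i., 0.2 to 3.29 at 8 w.p.i. and 3.97 to 10.3 at 24 w.p.i. At the floxed Daxx gene, H3K27ac at chr17:33909801-33913400 was 113 and 93.7 in Daxx-KO against 858 and 368 in WT at 24 w.p.i. The sites on either side went the other way. H3K27ac was 1570 and 1036 in Daxx-KO against 775 and 581 in WT at chr17:33908401-33909500, and 1875 and 1617 against 712 and 914 at chr17:33914651-33916950.

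Some libraries stood apart at the distal ends. WT replicate 1 of H3.3 at 3 w.p.i. had 22.88 reads per window against 3.06 in WT replicate 2, and WT replicate 1 of Pu.1 had 33.78 against 2.75. The labels of both WT replicates 1 read only wild type and give no mouse number, unlike those of the other libraries at 3 w.p.i. Both had low counts in the telomeric tracts and at the start of Mx1, which encodes an interferon-induced antiviral GTPase and lies in the distal end of chromosome 16. H3.3 at chr16:97462901-97463550 was 319 and 287 in Daxx-KO, 36.5 in WT replicate 1 and 217 in WT replicate 2. Further inside the gene, at chr16:97461451-97462150, WT replicate 1 was instead the highest. H3.3 was 56.09 there, against 47.15 in WT replicate 2 and 4.74 and 24.3 in Daxx-KO. At 24 w.p.i. WT replicate 1 was the lowest library at each site listed there for H3.3, H3K27me3 and H3K9me3, but not at every site for Pu.1 and H3K27ac. H3K27me3 at chr16:97462451-97463350 was 2521 and 2311 in Daxx-KO, 70.95 in WT replicate 1 and 2566 in WT replicate 2. H3.3 at chr16:97463351-97464350 was 383 and 286 in Daxx-KO, 24.0 in WT replicate 1 and 219 in WT replicate 2. H3K9me3 at chr16:97463401-97464350 was 93.7 and 231, against 6.22 and 44.98. For Pu.1 at chr16:97462401-97463050 WT replicate 1 was the highest, with 111 against 81.04 in WT replicate 2 and 31.4 and 9.4 in Daxx-KO, and H3K27ac at chr16:97460751-97463000 was 184 and 353 in Daxx-KO, 555 in WT replicate 1 and 601 in WT replicate 2. Since the transgene carries a Mx1 promoter, reads from it and from the Mx1 gene cannot be told apart. Whether these WT mice carried the transgene that their labels name was not tested. At 8 w.p.i., DKO replicate 3 of H3K9me3 was the deepest of its group, with 3.28 reads per window against 0.67 and 0.21, and had the highest tract counts. At 3 and 8 w.p.i., the tract sites and the library shares of all sites that rest on these libraries are given with and without them. Other values, such as shares of gained sites by distance from the end or at telomeric repeats elsewhere, are given only with them.

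Across the distal ends, listed sites were denser than in the rest of the autosomes in all 14 comparisons, by 1.006 to 1.398 times, and the share of gained sites was lower in 10 of the 14. At 3 w.p.i., 1299 of 2531 H3.3 sites at the ends were gained in Daxx-KO HSPCs, or 51.3% (95% interval 49.4 to 53.3), against 58.4% of all listed autosomal sites. Pu.1 showed the same order, with 1375 of 2760 sites gained, or 49.8%, against 54.9%. For H3K27ac 594 of 1923 sites were gained, or 30.9% (28.9 to 32.99), against 41.3% of all. In the pooled count H3K9me3 did not share this deficit of gains, as 849 of 1060 sites at the ends were gained, or 80.1%, against 78.9%. For H3.3, Pu.1 and H3K27ac the higher density at 3 w.p.i. came more from losses than from gains. For H3.3 the ends had 71.01 sites per Mb against 58.88 in the rest, and lost sites were 1.42 times as dense at the ends as in the rest. The corresponding factors for lost sites were 1.32 for Pu.1 and 1.51 for H3K27ac. For H3K9me3 gained sites were 1.27 times and lost sites 1.18 times as dense at the ends.

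At 8 w.p.i., H3K9me3 in Daxx-KO against WT had 677 of 1050 end sites gained, or 64.5%, against 66.0% of all autosomal sites. In DKO against WT 609 of 828 were gained, or 73.6% (70.4 to 76.4), against 81.2%, and in DKO against Daxx-KO 470 of 732, or 64.2%, against 72.9%. For H3K27me3 the gap between ends and all sites was the widest of the 14 comparisons. In DKO against WT 521 of 1192 sites at the ends were gained, or 43.7% (40.9 to 46.5), against 55.1% of all, and in DKO against Daxx-KO 604 of 1112, or 54.3%, against 65.0%. Lost H3K27me3 sites were 1.76 and 1.77 times as dense at the ends as in the rest. The comparisons at 8 w.p.i. share libraries, so their similarity is not independent.

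At 24 w.p.i. the ends were close to the rest for most targets. H3.3 had 2151 of 3935 end sites gained, or 54.7%, against 52.6% of all, and Pu.1 had 1942 of 3887, or 50.0%, against 48.2%. For H3K27ac the values were 1445 of 3436, or 42.1%, against 42.5%, and for H3K9me3 they were 1091 of 2252, or 48.4%, against 48.1%. H3K27me3 had 998 of 2567 sites gained, or 38.9%, against 41.2%. H3K27ac and H3K27me3 kept a higher density at the ends, 1.20 and 1.29 times that of the rest, whereas H3.3, Pu.1 and H3K9me3 were within 1.04 times of it.

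At most listed sites the libraries of the groups did not overlap, at the ends as elsewhere, since sites were selected for a difference. At 3 w.p.i. this held for 2476 H3.3 sites at the ends (97.8%, against 98.4% of all autosomal sites), 2705 Pu.1 sites (98.01% against 98.1%), 1871 H3K27ac sites (97.3% against 97.6%) and 1055 H3K9me3 sites (99.5% against 99.6%). At 24 w.p.i. it held for 98.3% of the H3.3 sites at the ends (98.3% of all), 98.04% for Pu.1 (98.2%), 97.03% for H3K27ac (97.3%), 96.9% for H3K9me3 (97.2%) and 97.2% for H3K27me3 (97.6%). With 3 libraries per group the separation was less complete. H3K9me3 had 908 separated end sites in Daxx-KO against WT (86.5%, against 89.0% of all), 491 in DKO against WT (59.3% against 65.6%) and 448 in DKO against Daxx-KO (61.2% against 69.6%). H3K27me3 had 1058 in DKO against WT (88.8% against 89.4%) and 914 in DKO against Daxx-KO (82.2% against 84.2%).

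**Figure D1:**
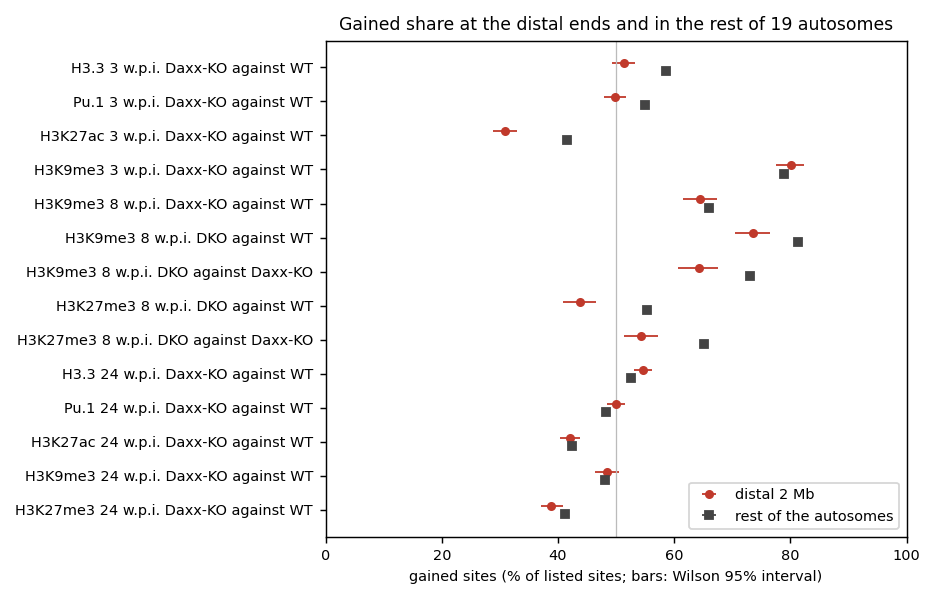
Share of gained sites (% of listed sites) at the distal 2 Mb of 19 autosomes (circles, bars are Wilson 95% intervals) and in the rest of these autosomes (squares) for each of the 14 comparisons. The ends lie to the left of the rest for H3.3, Pu.1 and H3K27ac at 3 w.p.i. and for the DKO comparisons at 8 w.p.i., and close to it at 24 w.p.i.

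The chromosome was also taken as the unit, so that no dense end could set the value. The end had a higher gained share than the rest of its chromosome on 5 of 19 autosomes for H3.3 at 3 w.p.i., on 7 for Pu.1 and on 6 for H3K27ac, with median differences of -14.17, -11.10 and -10.12 percentage points. For H3K9me3 in Daxx-KO against WT the end was higher on 6 of 19 at 3 w.p.i. and on 7 at 8 w.p.i. The median differences were -7.02 and -14.24 points, although the pooled shares of ends and all sites were close. For H3K27me3 at 8 w.p.i. the end was higher on 4 of 19 in DKO against WT, with a median difference of -18.94 points. At 24 w.p.i. the ends were higher on 13 of 19 autosomes for H3.3 and on 14 for Pu.1, with medians of 3.67 and 5.05 points. The higher pooled density was shared by most chromosomes in some comparisons only. The end was denser in sites than the rest on 11 of 19 autosomes for H3K27ac at 3 w.p.i. and for H3K27me3 in both DKO comparisons. For H3K27me3 at 24 w.p.i. it was denser on 10, and in the other comparisons on 6 to 9.

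Pooled, the distal ends are rich in genes, with 493 protein-coding starts in 35.65 Mb of sequence, or 13.83 per Mb against 8.61 in the rest, while GC content was 42.4% against 41.9%. Many single ends were poorer than the rest of their chromosome, such as that of chromosome 17 with 1.05 starts per Mb against 11.74. Gene starts were spread unevenly, from 2 in the end of chromosome 17 and 4 in that of chromosome 3 to 66 on chromosome 11 and 83 on chromosome 10. The ends were then set beside 2-Mb blocks of the same class of gene starts: 0 to 5, 6 to 15, 16 to 30 or over 30. These classes are coarse and held 4 to 6 ends each. Within them, the gained share of the ends was lower in 11 of the 14 comparisons. The difference was -12.11 percentage points for H3.3, -9.95 for Pu.1 and -8.92 for H3K27ac at 3 w.p.i., and -14.81 for H3K27me3 in DKO against WT. Within the classes the site density of the ends was 0.946 to 1.32 times that of the blocks, and above 1 in 11 comparisons. At equal GC content the gained share was lower at the ends in 12 of 14.

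The gained share varied widely from end to end. For H3.3 at 3 w.p.i. the gained share ran from 12.1% on chromosome 1 (17 of 140 sites) to 89.0% on chromosome 11 (268 of 301), while the 5th and the 95th percentile of the other 2-Mb blocks were 28.96% and 85.3%, so that 3 ends lay below and 1 above them. Chromosome 6 (20 of 94, 21.3%) and chromosome 8 (19 of 71, 26.8%) followed chromosome 1 at the low side, and chromosomes 15 (106 of 146, 72.6%) and 13 (39 of 57, 68.4%) followed chromosome 11 at the high side. Pu.1, whose labels give the same mouse numbers except for WT replicate 1, which has none, gave chromosome 1 the lowest share as well (21 of 147, 14.3%). Chromosome 11 again had the highest (284 of 338, 84.0%). For H3K27ac, measured mostly in other mice, the end of chromosome 11 had the lowest share, with 41 of 210 sites gained, or 19.5%, and chromosomes 7 (22.5%) and 2 (23.0%) came next. Across the 19 ends, gained H3.3 share and number of gene starts went together at 3 w.p.i. (Spearman's rho 0.70, beside 0.45 over 1155 other blocks). The relation was the opposite for H3.3 at 24 w.p.i. (rho -0.73, beside -0.22 over 1184 other blocks). For the other targets at 3 w.p.i., rho over the ends was 0.52 for Pu.1, -0.19 for H3K27ac and -0.58 for H3K9me3. These are descriptions over regions of the same libraries, which differ in base composition and gene content, and no p is given.

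For H3K9me3 at 3 w.p.i. the highest shares were found at the gene-poor ends of chromosomes 3 and 17 and at the gene-rich end of chromosome 10. The gained share was 97.7% at the end of chromosome 3 (171 of 175 sites), 94.4% on chromosome 17 (136 of 144) and 91.7% on chromosome 10 (111 of 121). The lowest shares were 31.4% on chromosome 9 (11 of 35), 34.8% on chromosome 2 (8 of 23) and 40% on chromosome 11 (12 of 30). At 8 w.p.i. chromosome 17 was the highest in Daxx-KO against WT, with 111 of 140 sites gained (79.3%), and chromosome 9 the lowest, with 13 of 52 (25.0%). At 24 w.p.i. the order of several ends was turned round. Chromosome 3 had 26 of 162 sites gained (16.05%), chromosome 10 had 36 of 158 (22.8%) and chromosome 13 had 20 of 78 (25.6%), whereas chromosomes 4, 16 and 2 had 72.2%, 71.1% and 67.6%. Over the 19 ends the shares at 3 and 24 w.p.i. had a Pearson correlation of -0.68 (Spearman -0.70), and the rest of the same chromosomes had -0.61 (Spearman -0.67), so the turn was not particular to the ends.

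**Figure D2:**
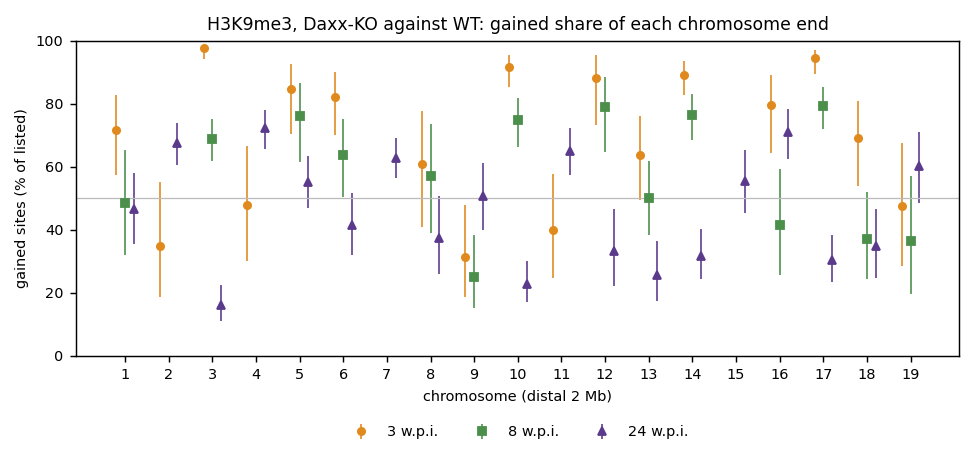
Share of gained H3K9me3 sites (% of listed sites, bars are Wilson 95% intervals) in the distal 2 Mb of each autosome for Daxx-KO against WT at 3, 8 and 24 w.p.i., for ends with at least 20 listed sites. Chromosomes 3, 10, 14 and 17 lie above 50% at 3 and 8 w.p.i. and below it at 24 w.p.i., and chromosome 2 lies below 50% at 3 w.p.i. and above it at 24 w.p.i.

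H3K27me3 varied from end to end in DKO against WT at 8 w.p.i. At the end of chromosome 16, 14 of 99 sites were gained (14.1%), against 71.2% in the rest of that chromosome. Chromosomes 12 (17 of 65, 26.2%) and 4 (30 of 109, 27.5%) were also low. The ends of chromosome 11 (33 of 36, 91.7%), chromosome 15, which carries the Hoxc genes (95 of 105, 90.5%), and chromosome 13 (47 of 64, 73.4%) were high. At 24 w.p.i. in Daxx-KO against WT the lowest ends were chromosome 8 (9 of 68, 13.2%) and chromosome 13 (17 of 80, 21.2%), and the highest were chromosome 9 (91 of 138, 65.9%) and chromosome 6 (79 of 127, 62.2%). The same percentiles of the other blocks were 9.64% and 64.8%, with 0 of 17 ends below and 1 above. For H3.3 at 24 w.p.i. the ends lay close together, between 48.4% on chromosome 7 and 65.8% on chromosome 3.

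Gains and losses were not spread evenly along the 2 Mb. Within 20 kb of the last sequenced base at 3 w.p.i., 95.7% of 23 H3.3 sites and 96.6% of 29 Pu.1 sites were gained. Between 0.5 and 1 Mb from it the shares were 47.2% and 45.3%, and beyond 10 Mb they were 58.6% and 55.0%. H3K9me3 rose from 68.9% gained at 0.1 to 0.5 Mb to 87.9% at 0.5 to 1 Mb. At 24 w.p.i. the last 20 kb held mostly losses of H3K27ac, with 11.5% of 26 sites gained, and of H3K27me3, with 4.0% of 25 sites gained. In DKO against Daxx-KO at 8 w.p.i., 93.1% of 29 H3K9me3 sites in the last 20 kb were gained. This share includes DKO replicate 3, which had the highest tract counts. Without it, 12 of the 15 telomeric sites listed within 5 kb of the last sequenced base were gained, by at most 1.41 times.

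**Figure D3:**
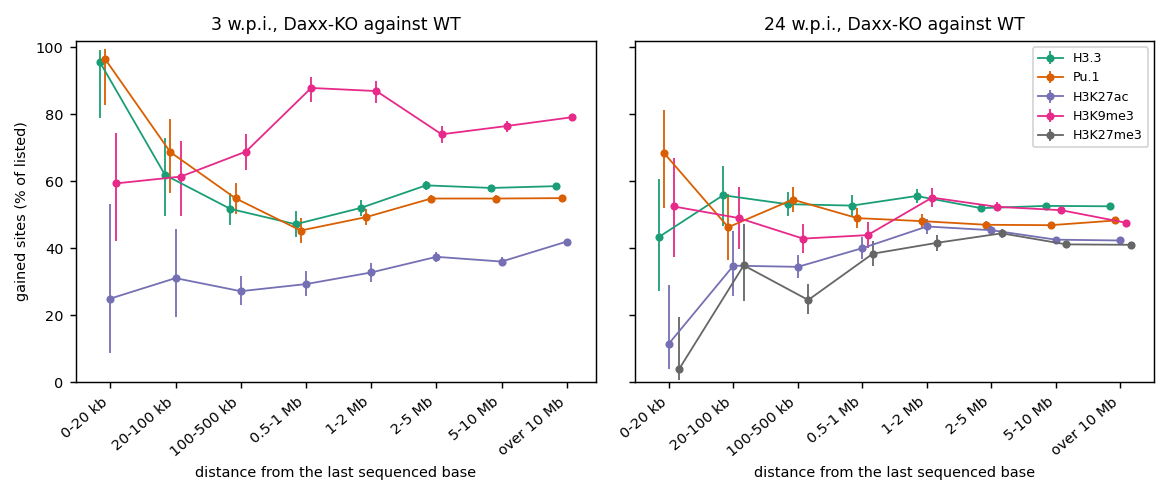
Share of gained sites (% of listed sites, bars are Wilson 95% intervals) by distance from the last sequenced base of the autosomes, for Daxx-KO against WT at 3 w.p.i. (left) and 24 w.p.i. (right). H3.3 and Pu.1 reach 95.7% and 96.6% in the last 20 kb at 3 w.p.i., while H3K27ac and H3K27me3 fall to 11.5% and 4.0% there at 24 w.p.i.

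The largest counts of all came from the telomeric tracts, taken as sites that hold the tandem pair of TTAGGG and lie within 5 kb of the last sequenced base. At 3 w.p.i. all 16 such H3.3 sites, on 15 chromosomes, and all 16 Pu.1 sites, on 16 chromosomes, were gained in Daxx-KO HSPCs. On chromosome 14 (chr14:124801051-124802750), H3.3 was 75366 and 60103 in Daxx-KO, 45.6 in WT replicate 1 and 12515 in WT replicate 2. On chromosome 12 (chr12:120028101-120029600) it was 29850 and 20349 in Daxx-KO, 103 in WT replicate 1 and 9539 in WT replicate 2. On chromosome 7 (chr7:145340401-145342000) it was 14081 and 15379, against 34.4 and 5647. Both Daxx-KO libraries were above both WT libraries, and WT replicate 1 was far below the other libraries. The ratio of group means was 3.25 to 10.8 over the 16 sites. Without WT replicate 1 all 16 were still gained, by 1.72 to 5.41 times. That leaves only the shallow WT replicate 2, with 3.06 reads per window against 9.43 and 11.27 in Daxx-KO. At the smallest of them, chr6:149586501-149587100, H3.3 was 67.1 and 75.2 in Daxx-KO, 0.7 in WT replicate 1 and 34.0 in WT replicate 2.

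For Pu.1, the chromosome 14 site (chr14:124801001-124802750) was at 82729 and 116159 in Daxx-KO, 49.1 in WT replicate 1 and 11584 in WT replicate 2. The chromosome 12 tract had 32102 and 47601 in Daxx-KO against 132 and 5005 in WT. Ratios of group means were 4.49 to 17.1 over the 16 sites. The exception among the WT libraries was chr17:94886601-94887200, with 71.7 and 103 in Daxx-KO, 25.1 in WT replicate 1 and 12.8 in WT replicate 2. Without WT replicate 1 all 16 were gained, by 2.33 to 8.58 times. Here too only WT replicate 2 remains, with 2.75 reads per window against 11.35 and 11.99 in Daxx-KO. The chromosome 14 site holds 0 matches to the Pu.1 motif GAGGAAGT, and a control library without a specific antibody was not analysed here. H3K27ac and H3K9me3 at 3 w.p.i., mostly from other mice, listed 1 tract site each. The H3K9me3 site, on chromosome 2, was lost by a small margin, with 986 and 1030 in Daxx-KO against 1066 and 1053 in WT replicates 1 and 2.

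At 8 w.p.i. H3K9me3 had 1 listed tract site in Daxx-KO against WT, and it was lost. In DKO against WT there were 17, of which 16 were gained. The gain rested on DKO replicate 3. At chr14:124801001-124802750 the DKO libraries had 1272, 1160 and 7012 and the WT libraries 1473, 1363 and 560, so DKO replicates 1 and 2 lay inside the WT range. Without DKO replicate 3, 9 of the 17 sites were gained. In DKO against Daxx-KO all 15 tract sites were gained, and DKO replicate 3 was again the highest library at each of them. Without it 12 of the 15 were gained, by at most 1.41 times. For H3K27me3 in DKO against WT there were 5 tract sites, all gained and all with overlapping libraries, and in DKO against Daxx-KO there were 0.

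By 24 w.p.i. the tracts were listed in all 5 comparisons, with losses of H3K27ac and H3K27me3 and gains of H3K9me3 and Pu.1. H3K27ac was lost at 15 of 17 tract sites. At chr14:124801051-124802800 it was 67394 and 62326 in Daxx-KO against 121789 and 143244 in WT. On chromosome 12 it was 23340 and 21856 against 48171 and 57123, and on chromosome 7 it was 15580 and 14283 against 21065 and 23544. Both groups were tight and did not overlap at any of the 17 sites, as at 97.3% of all listed autosomal H3K27ac sites, and the lost sites had 0.429 to 0.812 times the WT mean. H3K27me3 was lost at all 16 of its tract sites, to 0.510 to 0.625 times the WT mean. At chr7:145340401-145342000 it was 5092 and 6570 in Daxx-KO against 12151 and 9147 in WT, and the groups did not overlap at any of the 16, beside 97.6% of all listed sites.

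H3K9me3 moved the other way at 24 w.p.i., with 15 of 16 tract sites gained. At chr10:130593951-130595500 it was 24535 and 15907 in Daxx-KO against 13101 and 11743 in WT, and the gained sites had 1.32 to 1.92 times the WT mean. The exception was chromosome 9, whose assembled tract is short, with 26.8 and 60.5 in Daxx-KO against 143 and 127 in WT. Pu.1 was higher by little at all 8 of its tract sites. On chromosome 10 it was 4958 and 4910 in Daxx-KO against 4862 and 4115 in WT, and without Daxx-KO replicate 1 only 4 of the 8 were gained. H3.3 had 3 tract sites, 2 of them gained, with 2061 and 2028 against 1796 and 1709 on chromosome 10.

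**Figure D4:**
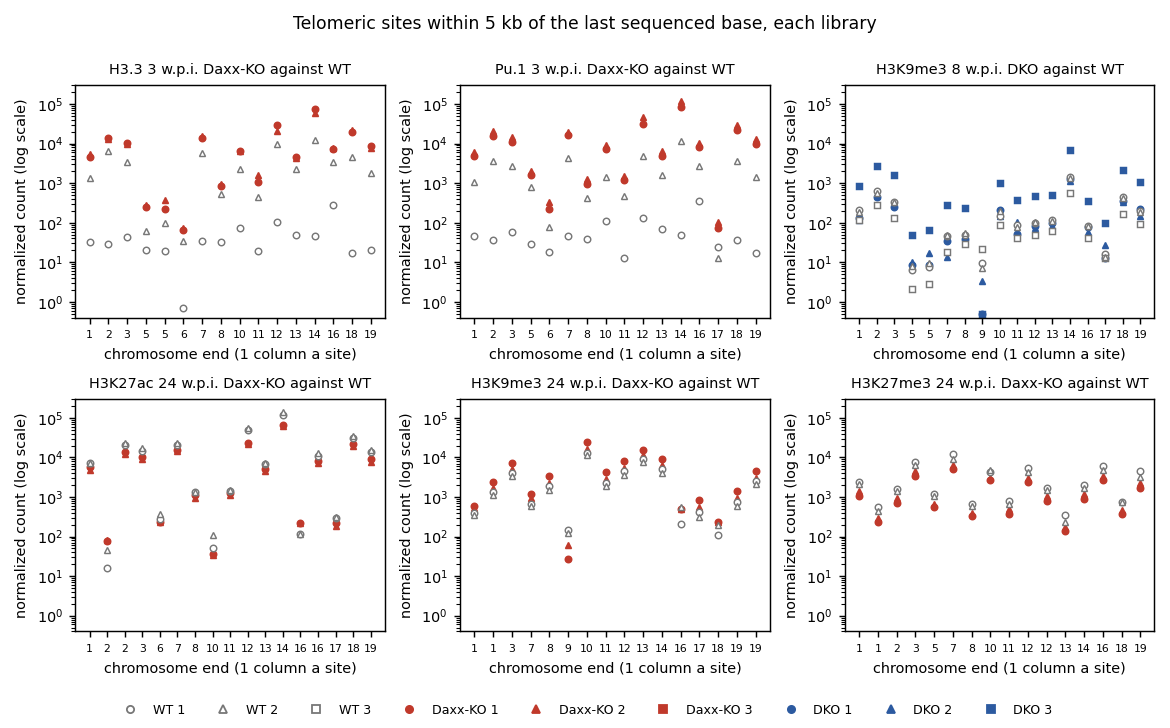
Normalised counts (log axis) of each library at the listed telomeric sites within 5 kb of the last sequenced base, with 1 column per site, for the comparisons with many such sites. Values of 0 are drawn at 0.5. H3.3 and Pu.1 at 3 w.p.i. show WT replicate 1 below the other libraries at every site but the chromosome 17 site of Pu.1, H3K9me3 at 8 w.p.i. shows DKO replicate 3 above the others, and at 24 w.p.i. H3K27ac and H3K27me3 lie lower and H3K9me3 higher in Daxx-KO at most sites.

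Telomeric repeats away from the ends were also listed. Of 206 H3.3 sites with the tandem pair elsewhere on the autosomes at 3 w.p.i., 75.2% were gained, and of 209 Pu.1 sites 78.9%, against 58.4% and 54.9% of all sites. WT replicate 1 was low in these sites too. Their summed H3.3 counts were 99655 and 97153 in Daxx-KO, 13290 in WT replicate 1 and 34962 in WT replicate 2. For Pu.1 they were 104889 and 138528, against 14827 and 25689. At 24 w.p.i. 17.7% of 198 H3K27ac sites, 14.2% of 141 H3K27me3 sites and 69.0% of 142 H3K9me3 sites of this kind were gained, against 42.5%, 41.2% and 48.1% of all. H3.3 and Pu.1 at 24 w.p.i. were closer to all sites, with 44.3% of 167 and 53.5% of 185 gained, against 52.6% and 48.2%. For H3K9me3 in Daxx-KO, the single tract site listed at 3 and at 8 w.p.i. was lost, while 26 of 43 and 34 of 40 sites elsewhere were gained. Such reads may come from any telomeric tract, since the repeat is the same.

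To compare libraries and not sites, the share of a library's listed counts that lay in the distal ends was computed. For H3.3 at 3 w.p.i. it was 4.03% and 3.802% in Daxx-KO against 1.89% and 2.86% in WT. Telomeric sites made up 61.6% and 57.8% of the end counts in Daxx-KO, 1.19% in WT replicate 1 and 31.8% in WT replicate 2. With them left out, the order turned round, with 1.61% and 1.66% in Daxx-KO against 1.88% and 1.98% in WT. Pu.1 went from 4.03% and 4.82% against 1.87% and 2.499% to 1.75% and 1.71% against 1.85% and 1.97%. The higher H3.3 and Pu.1 share of the ends thus lay in the telomeric sites, where WT replicate 1 was low. With all sites but without WT replicate 1, the difference between the groups was 1.05 points for H3.3 and 1.93 for Pu.1.

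For H3K27ac at 3 w.p.i. the share was 1.67% and 1.58% in Daxx-KO against 2.14% and 2.09% in WT, with hardly any telomeric counts. H3K27me3 at 8 w.p.i. was lower in every DKO library, with 2.26%, 1.95% and 2.08% (replicates 1 to 3) against 2.60%, 2.62% and 2.67% in WT. At 24 w.p.i., H3K27ac was 2.54% and 2.42% in Daxx-KO against 3.02% and 3.22% in WT, and 1.82% and 1.76% against 1.76% and 1.74% without telomeric sites. H3K9me3 was 1.91% and 1.70% against 1.47% and 1.47% and kept its direction without them, at 1.18% and 1.26% against 1.14% and 1.14%. The groups did not overlap in 11 of the 14 comparisons. The shares sum only sites selected for a difference between these same groups, so this separation is no independent support. A two-sided exact permutation test of the libraries cannot go below p = 0.3333 for 2 against 2 or p = 0.1 for 3 against 3, so no comparison could pass, and the smallest adjusted p over the 14 (exact permutation test, Benjamini-Hochberg) was 0.4242.

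**Figure D5:**
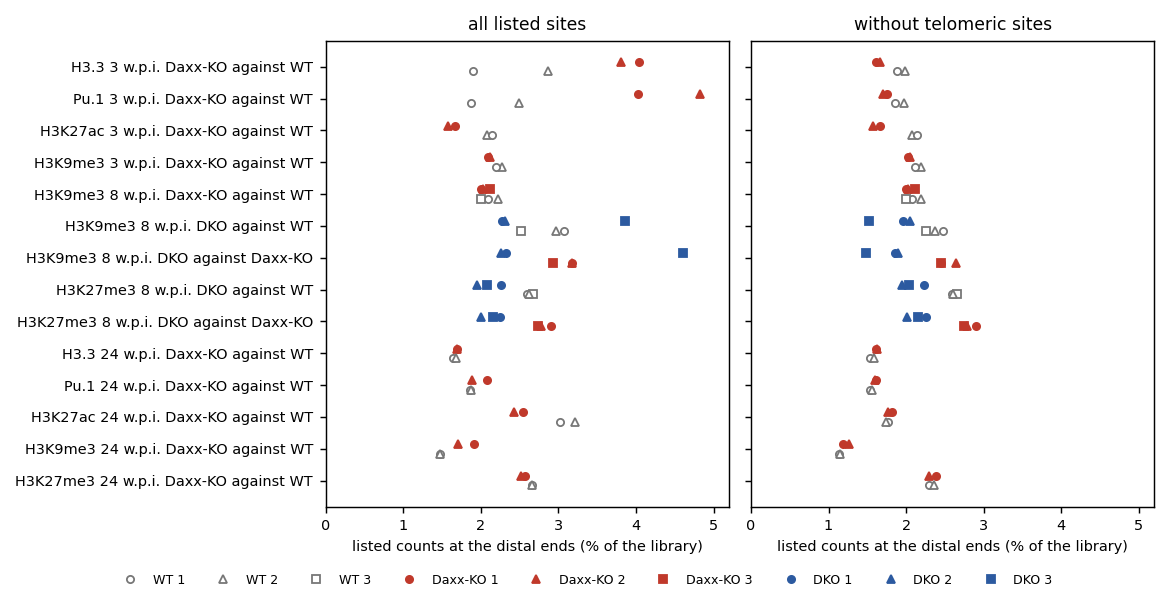
Share of each library's listed normalised counts that lies in the distal 2 Mb of the autosomes (% of the library), with all sites (left) and without sites that hold a tandem pair of TTAGGG (right), 1 point per library. The Daxx-KO libraries of H3.3 and Pu.1 at 3 w.p.i. lie above WT on the left and below WT on the right, and DKO replicate 3 of H3K9me3 at 8 w.p.i. leaves its high position on the right.

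The sequences under the sites differed between gains and losses, at the ends as in the rest of the autosomes. At 3 w.p.i. 11.5% of gained H3.3 sites at the ends lay within 1 kb of a protein-coding start, against 3.73% of lost ones, and H3K27ac had 5.39% of gained and 8.73% of lost sites there. In the rest these shares were 7.46% and 2.99% for H3.3 and 3.14% and 7.58% for H3K27ac. At 24 w.p.i. H3K27ac gains were nearer to promoters (14.1% against 7.68% of losses), while H3K27me3 losses were (12.8% against 6.51% of gains). The rest had 10.3% against 5.88% for H3K27ac and 10.1% against 5.255% for H3K27me3. H3K9me3 losses held more masked repeats than gains, with a median of 75.5% masked bases at 3 w.p.i. against 41.9% in gains, and 42% against 15.7% at 24 w.p.i. In the rest the medians were 60.2% against 34.8% and 30.5% against 20.4%. The Pu.1 motif GAGGAAGT, on either strand, was no more frequent at the ends. It was in 5.62% of Pu.1 sites at the ends at 3 w.p.i. and in 5.67% in the rest, and in 5.48% against 5.76% at 24 w.p.i. Of all 750-bp windows of the autosomes, 4.54% hold it.

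Merging overlapping sites of all tables gave 11119 places at the ends, of which 5368 were listed in 1 table and 28 in 10 or more. The places listed in the most tables lay in repetitive stretches near the end of chromosomes 13, 2, 19 and 9. A place of 23450 bp on chromosome 13 (chr13:119595201-119618650), which begins in Tmem267 and runs beyond it, with Ccl28, a mucosal chemokine gene, as the nearest start, was listed in all 14. H3.3 at chr13:119595901-119602050 was 4343 and 4855 in Daxx-KO against 1355 and 2376 in WT at 3 w.p.i., and Pu.1 at chr13:119595201-119603800 was 6969 and 5932 against 1639 and 2365. H3K9me3 at chr13:119600801-119605600 was 286 and 422 against 1345 and 1776. Thus at these largest sites, which overlap only in part, H3.3 and Pu.1 were higher and H3K9me3 lower in Daxx-KO at 3 w.p.i. The place was not uniform, as 5 of its 9 H3.3 sites and 4 of its 7 Pu.1 sites were lost at that time. At chr13:119613451-119616350 H3.3 was 216 and 217 against 520 and 513. At 24 w.p.i. most sites of the place were lost as well, 10 of 14 for H3.3, 7 of 10 for Pu.1 and 8 of 9 each for H3K27ac and H3K9me3.

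Near the end of chromosome 19, a place of 2100 bp (chr19:61265601-61267700, nearest gene Gm21060) lost H3K9me3 at every time. Its group means were 24.0 in Daxx-KO and 149 in WT at 3 w.p.i., and 11.6 and 92.0 at 8 w.p.i. At 24 w.p.i. the Daxx-KO libraries had 409 and 388 and the WT libraries 1635.32 and 1622.93. At 3 w.p.i. H3.3 was gained there (261 against 91.0), as was Pu.1 (272 against 62.3), and H3K27ac was lost (153 against 333). The reverse was found on chromosome 9 (chr9:124255801-124258550, nearest gene 2010315B03Rik), where H3K9me3 was 1263 and 1253 in Daxx-KO against 285 and 426 in WT at 3 w.p.i. At 8 w.p.i. it was 1630, 2190 and 1505 against 224, 241 and 337. The difference was smaller at 24 w.p.i. (means of 1931 and 1091), and in DKO against Daxx-KO the place was lost (237 against 432). To show the kind of sequence that gained H3K9me3 there, 200 bases from the middle of the chromosome 9 place are given on the plus strand, at chr9:124257075-124257274 of mm10, with any CG in capitals.
chr9 place: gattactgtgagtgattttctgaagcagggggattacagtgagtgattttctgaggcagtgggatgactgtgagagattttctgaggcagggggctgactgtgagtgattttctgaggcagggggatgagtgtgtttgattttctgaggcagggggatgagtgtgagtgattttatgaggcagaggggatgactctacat
This stretch, a short tandem repeat, holds 0 CG, and the sequenced bases of the whole place hold 9.

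On chromosome 2, chr2:181914801-181921550 (nearest gene Polr3k, a subunit of RNA polymerase III) and chr2:181928701-181932550 (nearest gene Gm14496) also had their largest H3K9me3 site lost at all times in Daxx-KO, although 1 of the 3 sites in the first place was gained at 3 w.p.i. The second place had group means of 65.7 and 269 at 3 w.p.i., 29.3 and 233 at 8 w.p.i. and 365 and 1233 at 24 w.p.i. Within it, chr2:181929251-181931500 was at 37.97, 25.8 and 24.1 in Daxx-KO against 200, 133 and 365 in WT at 8 w.p.i.

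Apart from telomeric repeats, the sites with the largest difference in each direction lay in varied settings. At 8 w.p.i. H3K27me3 in DKO was lowest against controls over Prkcz on chromosome 4, which encodes an atypical protein kinase C. At chr4:155319451-155327150 it was 120, 34.9 and 129 in DKO against 479, 463 and 686 in WT. At chr4:155316001-155327400 it was 171, 73.4 and 175 against 787, 936 and 718 in Daxx-KO. H3K27me3 at chr9:123461301-123462700 in Lars2, a mitochondrial leucyl-tRNA synthetase gene, was 1119, 507 and 900 in DKO against 266, 166 and 217 in WT. At 24 w.p.i. it was 3697 and 3545 in Daxx-KO against 1776 and 2240 in WT at chr9:123461251-123462700, and H3.3 at chr9:123461401-123462650 was 188 and 118 against 535 and 547. The largest H3K27me3 loss at 24 w.p.i. lay over Hes5, a Notch target, and Pank4 (chr4:154955851-154965050), with 3099 and 3211 against 5006 and 7552. The largest H3K27ac loss lay 36 kb from Metrnl (chr11:121737351-121746500), with 1042 and 805 against 3218 and 3282.

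Gene groups were taken from a list of 67 genes, of which 61 have their start in a distal end, and each site was given to the gene with the nearest start. The counts are read beside the background shares above, and nothing is called particular to a group. Surface and adhesion genes of blood cells (11 genes) had 43 gained and 71 lost H3.3 sites at 3 w.p.i., and 62 gained and 106 lost H3K27ac sites. The gained shares were 37.7% and 36.9%, beside 58.4% and 41.3% of all listed autosomal sites. At 24 w.p.i. these genes had 123 gained and 76 lost H3.3 sites, with more gains than losses at 10 of the 11 genes. They had 56 gained and 160 lost H3K27ac sites, with more losses at 10 of the 11. These shares were 61.8% and 25.9%, beside 52.6% and 42.5% of all. Cd34, a surface marker of stem and progenitor cells, was an exception at its promoter. H3K27ac at chr1:194937851-194939050 was 519 and 331 in Daxx-KO against 155 and 193 in WT at 3 w.p.i., and at chr1:194938301-194939550 it was 704 and 850 against 474 and 388 at 24 w.p.i. At the promoter of Itgb1, the shared beta chain of many integrins, H3K27ac at chr8:128684551-128685700 was 33.9 and 11.9 against 92.4 and 89.4 at 3 w.p.i. At a site whose nearest start, 191604 bp away, is that of Nrp1, a co-receptor for semaphorins and VEGF, H3K27ac (chr8:128165251-128167000) was 127 and 107 against 322 and 668 at 24 w.p.i. At Itga5, the fibronectin receptor chain, H3.3 at chr15:103365951-103367300 was 130 and 140 against 25.8 and 26.3 at 24 w.p.i.

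The chemokine receptors, clustered at the end of chromosome 9 (8 genes), had 29 gained and 16 lost H3K27ac sites at 3 w.p.i. and 28 gained and 42 lost at 24 w.p.i. The gained shares were 64.4% and 40%, beside 41.3% and 42.5% of all listed autosomal sites. The largest H3K27ac gain of the ends at 3 w.p.i. lay 20 kb from Ccr2, the monocyte receptor for Ccl2 (chr9:124079051-124081950), with 225 and 462 in Daxx-KO against 92.4 and 69.5 in WT. At 24 w.p.i. a site inside Ccr9, a receptor of gut-homing lymphocytes (chr9:123768401-123770300), given to Cxcr6 by its nearest start 36175 bp away, had 197 and 205 against 542 and 622. A site 6722 bp from the start of Xcr1, a receptor of cross-presenting dendritic cells (chr9:123868751-123870200), had 83.2 and 77.6 against 276 and 309. The groups did not overlap at these sites.

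Among cytokine and immune receptors (5 genes), Pu.1 had 18 gained and 5 lost sites at 24 w.p.i., with more gains at all 5, and H3K27me3 had 3 gained and 17 lost. The gained shares were 78.3% and 15%, beside 48.2% and 41.2% of all listed autosomal sites. Pu.1 close to the start of Csf2ra, the alpha chain of the GM-CSF receptor (chr19:61227201-61228300), was 88.6 and 176 in Daxx-KO against 10.1 and 29.5 in WT at 24 w.p.i. At 3 w.p.i. a nearby Pu.1 site (chr19:61225251-61226850) was at 241 and 83.5 against 41.3 and 6.39. H3K27ac 2614 bp from the start of Tnfrsf18, the T-cell co-receptor GITR (chr4:156020651-156023550), was 119 and 174 against 426 and 459 at 24 w.p.i. The promoters of Csf2ra and Cd34 are shown because Pu.1 was gained 129 bp from the start of Csf2ra and H3K27ac over the start of Cd34. The gained Pu.1 site at Csf2ra lies inside the gene and does not overlap the printed bases. The sequences are RefSeq's for GRCm38.p6, from 250 bases before to 50 after the gene start, at chr19:61228369-61228668 on the minus strand and chr1:194938571-194938870 on the plus strand. Capitals mark GAGGAA, the core of a Pu.1 site, or its reverse TTCCTC.
Csf2ra promoter: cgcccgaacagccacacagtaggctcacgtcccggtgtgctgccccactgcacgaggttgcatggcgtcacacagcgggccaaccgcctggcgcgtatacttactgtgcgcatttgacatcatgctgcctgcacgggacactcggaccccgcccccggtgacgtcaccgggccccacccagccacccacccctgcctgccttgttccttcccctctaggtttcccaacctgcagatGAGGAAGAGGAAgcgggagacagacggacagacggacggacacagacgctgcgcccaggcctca
Cd34 promoter: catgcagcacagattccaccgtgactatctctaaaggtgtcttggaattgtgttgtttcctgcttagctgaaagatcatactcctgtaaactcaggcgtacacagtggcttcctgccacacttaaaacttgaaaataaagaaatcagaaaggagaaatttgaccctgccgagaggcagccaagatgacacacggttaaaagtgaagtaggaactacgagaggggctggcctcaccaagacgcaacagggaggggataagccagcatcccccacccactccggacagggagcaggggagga
The Csf2ra promoter holds 2 matches and the Cd34 promoter 0. Among the 32851 promoters given by RefSeq, 28.3% hold GAGGAA or TTCCTC, and of the 654 in the distal ends 26.8%.

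Transcription factor genes (18 genes, among them the Hoxc cluster) had 54 gained and 43 lost H3K27me3 sites in DKO against WT at 8 w.p.i. The gained share was 55.7%, beside 55.1% of all listed autosomal sites. At 24 w.p.i. these genes had 42 gained and 75 lost in Daxx-KO, with more losses at 14 of the 18. The gained share was 35.9%, near the 41.2% of all. At Rarg, the retinoic acid receptor gamma (chr15:102244901-102249450), H3K27me3 was 516 and 279 in Daxx-KO against 1048 and 1238 in WT at 24 w.p.i. At Nfe2, a factor of megakaryocyte and erythroid cells (chr15:103257751-103259050), it was 112 and 97.5 against 209 and 374. Over the start of Hoxc9, H3.3 at chr15:102976101-102977250 was 81.7 and 183 against 0.92 and 1.88, while Pu.1 at chr15:102976351-102977500 was 0 and 27.2 against 137 and 77.9. H3.3 and Pu.1 thus moved in opposite directions there at 24 w.p.i. At the promoter of Sp1, a general activator (chr15:102404851-102406550), Pu.1 was 40.9 and 3.13 against 132 and 196.

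Genes of cell cycle, cell death and replication (7 genes) had 13 gained and 36 lost H3K27ac sites at 3 w.p.i., with more losses at each of the 6 genes with a site, and 33 gained and 64 lost at 24 w.p.i., with more losses at 6 of 7. The gained shares were 26.5% and 34.0%, beside 41.3% and 42.5% of all listed autosomal sites. At Fadd, an adaptor of death receptors (chr7:144580001-144582150), H3K27ac was 73.6 and 16.1 in Daxx-KO against 120 and 147 in WT at 3 w.p.i. H3K27me3 had 11 gained and 83 lost sites near these genes at 24 w.p.i., or 11.7% gained beside 41.2% of all. At the promoter of Ccnd1, the gene of cyclin D1 (chr7:144938651-144940400), H3K27ac was 378 and 101 against 24.6 and 51.4 at 24 w.p.i., and H3K27me3 at chr7:144942751-144945950 was 546, 290 and 241 in DKO against 143, 109 and 139 in WT at 8 w.p.i. Cdkn1c, an inhibitor of cell-cycle kinases, lost Pu.1 at chr7:143460951-143463150 at 24 w.p.i., with 7.5 and 0 against 138 and 246. At 3 w.p.i. H3.3 at chr7:143458551-143460450 was 114 and 170 against 45.6 and 15.7. At Rtel1, a helicase that protects telomeres, H3K27ac 162 bp from the start (chr2:181319901-181320700) was 58.4 and 76.1 against 142 and 105 at 24 w.p.i.

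The imprinted genes at the end of chromosome 7 (4 genes) had 11 gained and 1 lost H3K9me3 sites at 24 w.p.i., 10 gained and 25 lost H3K27ac sites, and 2 gained and 16 lost H3K27me3 sites, with the same direction at each of the 4 genes. The gained shares were 91.7%, 28.6% and 11.1%, beside 48.1%, 42.5% and 41.2% of all listed autosomal sites. An H3K27ac gain at these genes lay in Nap1l4, a histone chaperone gene (chr7:143513301-143514650), 10151 bp from the start of Phlda2, with 436 and 546 in Daxx-KO against 160 and 127 in WT. The growth factor genes (5 genes, among them Fgf3, Fgf4 and Fgf15) had 52 gained and 13 lost H3K9me3 sites at 3 w.p.i. and 49 gained and 64 lost at 24 w.p.i., beside backgrounds of 78.9% and 48.1% gained. These counts include the tract of chromosome 14, whose nearest start is that of Fgf14. Wls, a Wnt secretion factor at the end of chromosome 3 that the study names for binding of the telomeric RNA TERRA, had 3 gained and 5 lost H3.3 sites at 3 w.p.i. and 5 gained and 2 lost at 24 w.p.i. Its largest H3.3 site at 3 w.p.i. was the tract 99179 bp away (chr3:159938851-159940250), with 10112 and 9589 in Daxx-KO, 43.5 in WT replicate 1 and 3531 in WT replicate 2. Of the interferon genes, Isg15, a ubiquitin-like protein, had H3K27ac at chr4:156199101-156199750 of 57.7 and 58.5 against 10.1 and 26.1 at 24 w.p.i. The values of Mx1 are given above with the low WT library.

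Sites at the ends recurred between time points about as in the rest of the autosomes. For H3.3, 825 of the 2531 end sites at 3 w.p.i. (32.6%) overlapped a site at 24 w.p.i., and 847 of the 3935 at 24 w.p.i. (21.5%) overlapped one at 3 w.p.i. The direction was the same in 52.5% of the overlapping pairs at the ends and in 51.2% in the rest. For Pu.1 it was the same in 51.3% and 48.01%, and for H3K27ac in 58.9% and 59.8%. H3K9me3 kept its direction more often between 3 and 8 w.p.i., in 74.3% of the pairs at the ends and 78.02% in the rest, than between 8 and 24 w.p.i., with 54.6% and 60.1%. The tables of a target at different times share no library, but mice at different times were not the same animals, and the p-values and spreads given describe these libraries only.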

How the data were processed

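Per the submitters' processing notes, CASAVA 1.8.4, cutadapt 1.13, STAR 2.5.3 and bedtools were used on mm10, and their settings are not given in the sources used here. Per the file headers, the authors compared groups with diffReps in 600-bp windows and deposited, for each site that passed, the signal of each library as a normalised count (reads divided by a library constant) and its mean over the group. The deposited tables also hold the authors' log2 fold changes, p-values, adjusted p-values and event calls, which were not used. Of 15 tables, the H3K27me3 table of Daxx-KO against WT at 8 w.p.i. was left out because its controls are H3K9me3 libraries.

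Direction was taken from the group means of the library values. Density is per Mb of sequenced bases. Gene starts are protein-coding starts of GENCODE M21, and a promoter site lies within 1 kb of a start. The distal end was 2 Mb wide, GC bins 2 percentage points, and sites overlapped by at least 1 bp. Named were, per table, the gained and the lost site with the largest difference of means among sites whose groups do not overlap (chromosome 18 left out), the 3 highest and 3 lowest ends with at least 20 sites, the listed genes with their largest site whose groups do not overlap, and the 5 places in the most tables. Values of chromosome 10 tracts, Mx1 and Daxx were chosen after their values were seen. Members and lists were chosen with earlier results of these data known. No test across sites was made. Library shares were compared with two-sided exact permutation tests, adjusted over 14 comparisons. The replicate numbers name different mice and do not pair them. Python 3.11.15, numpy 2.4.6, pandas 2.3.3 and scipy 1.17.1 were used, and the functions were tested on simulated data. Some sequences and a gene are not reported here.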

Additional observations from a re-analysis of the deposited data

Results flagged for a closer look

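Some differences ran in opposite directions at 3 and 24 w.p.i. with no overlap between groups at either time. The sites were selected for a difference between these groups, so the lack of overlap is no independent support. The difference between times was not tested, and the mice and the depth of the libraries differed between them. For H3.3, the share of listed counts at the distal ends without telomeric sites was 0.293 percentage points lower in Daxx-KO than in WT at 3 w.p.i. (difference -0.2932) and 0.0553 points higher at 24 w.p.i., a change of 0.3485. For Pu.1 the differences were -0.185 and 0.0588, a change of 0.2438. The share of H3K9me3 counts at the ends went from -0.1275 to 0.3365, a change of 0.464. Without telomeric sites H3K9me3 went from -0.1169 to 0.0808, a change of 0.1977, and in the telomeric sites alone from -0.01396 to 0.2673, a change of 0.2813. No group held 4 or more libraries, so no group was searched for single outlying libraries.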

How the results depend on the processing

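The number of comparisons with a lower gained share at the ends, 10 of 14, was 11 with ends of 1 Mb, 9 with 5 Mb and 12 without the densest end. That with a higher density, 14, was 12 at 1 Mb, 11 with gaps counted as sequence and 13 with sites merged or without telomeric sites. Some values turned round, and the cause was not tested. The difference in the gained share between ends and rest became 1.714 points for H3K27me3 in DKO against Daxx-KO at 1 Mb, and -0.4051 for Pu.1 and 1.42 for H3K27me3 at 24 w.p.i. at 5 Mb. The density ratio of H3.3 at 24 w.p.i. became 0.9476 at 1 Mb and 0.9985 with gaps. The difference in library shares became -0.2932 for H3.3 and -0.185 for Pu.1 at 3 w.p.i., and 0.03967 for H3K27ac and 0.009093 for H3K27me3 at 24 w.p.i., without telomeric sites. At 1 Mb it became 0.02247, 0.2213 and 0.04449 in the DKO comparisons of H3K9me3 with WT, H3K9me3 with Daxx-KO and H3K27me3 with Daxx-KO, and -0.03047 for H3.3 at 24 w.p.i. At 5 Mb it became 1.143 for H3K9me3 in Daxx-KO at 8 w.p.i., and -0.008317 for H3.3 and 0.08133 for H3K27me3 at 24 w.p.i. Leaving out each library in turn moved the H3K9me3 differences at 8 w.p.i. between -0.1037 and 0.00604 (without WT replicate 2) in Daxx-KO against WT, between -0.5668 and 0.2293 in DKO against WT, and between -0.7995 and 0.3699 in DKO against Daxx-KO. The lowest of these came without DKO replicate 3 and the positive ones without another library. For H3.3 and Pu.1 at 3 w.p.i. the range was 1.054 to 2.024 and 1.841 to 2.64, and for H3K27ac and H3K27me3 at 24 w.p.i. it was -0.7359 to -0.54 and -0.1352 to -0.08948.

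A replicate block, pairing libraries with the same number, gave the same differences (1.539 points for H3.3 at 3 w.p.i., for example) with no p below 0.5 for 2 pairs or 0.25 for 3 pairs. The numbers name different mice. Depth limits the tables at 8 w.p.i. most, where 0.2 to 3.29 reads fell in a window.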
